A study of Mus musculus with 3 samples.

Results

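The genes described are those of the signals that keep Langerhans cells in the epidermis: the colony stimulating factor genes Il34, Csf1 and Csf2, the receptor gene Csf1r, the TGF-beta genes Tgfb1, Tgfb2 and Tgfb3, the receptor genes Tgfbr1 and Tgfbr2, and the integrin gene Itgb8. They were listed by name, as 10 of the 31053 gene IDs counted (31017 distinct symbols), and read in mouse ear skin cells sorted into gates by raw counts of other genes. The question was whether these genes differ in level where Langerhans cells are missing.

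IL-34 and CSF-1 are separate ligands of 1 receptor, CSF1R, and in mouse skin IL-34 made by keratinocytes is known to be needed for Langerhans cells. GM-CSF, the product of Csf2, acts on another receptor and drives the growth of dendritic cells in culture. TGF-beta is secreted in a latent form, bound to its own propeptide, and is freed by integrins that hold the alpha v chain, among them alpha v beta 8, whose beta chain is the product of Itgb8. The active ligands signal through a complex of TGFBR1 and TGFBR2, and loss of TGF-beta signalling is known to make Langerhans cells leave the epidermis.

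There were 3 droplet single-cell RNA libraries, 1 for each group, all from untreated ear skin. Adult Lang-DTA came from hemizygous Langerin-DTA mice 8 weeks old, in which human Langerin regulatory sequence drives diphtheria toxin A, pooled from 4 males and 6 females. Adult WT came from wild-type mice 8 weeks old (6 males and 4 females), and young WT from wild-type mice 4 weeks old (5 males and 3 females). The wild-type titles give C57BL/6J, the Lang-DTA title gives no background strain, and the protocols say that wild types used with Langerin-DTA mice were littermates. In every library sorted endothelial cells of lymphatics and of blood vessels, leukocytes (CD45+) and the remaining cells (CD45-CD31-) were mixed in equal amounts, so gate sizes are not tissue proportions. With no replicate library there was no test, and a difference between libraries cannot be told apart from a difference between pools of mice. Levels are UMIs (unique molecular identifiers, counted molecules) per 1000000 UMIs of all cells in a gate, or CPM. Brackets hold exact 95% intervals, which cover counting error only.

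In lymphatic endothelial cells Csf1 and Tgfb2 were higher in Lang-DTA than in adult WT, and Tgfb1 was lower. The 250 bases before the annotated start of those 3 genes are shown for that reason, from RefSeq (GRCm38.p6), 5′ to 3′ on the strand of the gene. Csf1 is at chr3:107760470-107760719 (minus strand), Tgfb2 at chr1:186705990-186706239 (minus strand) and Tgfb1 at chr7:25686752-25687001 (plus strand). Capitals mark matches to the motifs named after the sequences.
Csf1: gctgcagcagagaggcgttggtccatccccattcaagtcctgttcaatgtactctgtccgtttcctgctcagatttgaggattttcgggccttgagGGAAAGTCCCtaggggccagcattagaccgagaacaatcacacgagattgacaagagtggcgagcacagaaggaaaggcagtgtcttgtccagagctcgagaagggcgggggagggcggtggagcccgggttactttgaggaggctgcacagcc
Tgfb2: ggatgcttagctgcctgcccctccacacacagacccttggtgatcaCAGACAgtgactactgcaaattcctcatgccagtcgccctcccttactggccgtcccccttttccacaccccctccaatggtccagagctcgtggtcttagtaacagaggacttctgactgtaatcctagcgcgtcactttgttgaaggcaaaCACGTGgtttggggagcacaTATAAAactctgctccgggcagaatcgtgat
Tgfb1: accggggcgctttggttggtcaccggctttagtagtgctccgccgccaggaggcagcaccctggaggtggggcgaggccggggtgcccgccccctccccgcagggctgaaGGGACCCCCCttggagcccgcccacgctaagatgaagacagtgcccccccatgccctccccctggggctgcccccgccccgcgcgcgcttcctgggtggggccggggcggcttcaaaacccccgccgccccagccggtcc
Motifs were searched on both strands, and the share of 32851 RefSeq promoter windows of the same length that hold each one is given with it. They were the AP-1 motif TGANTCA (6.75%), the cyclic AMP element TGACGTCA (1.55%), the degenerate NF-kB motif of 10 bases (7.25%), the SMAD palindrome GTCTAGAC (0.167%), the SMAD element CAGACA (17.1%), the E-box CACGTG (6.02%) and the TATA box TATAAA (12.4%). The Csf1 window held 1 match, the NF-kB motif on the other strand, 154 to 145 bases before the start. The Tgfb2 window held CAGACA 204 to 199 bases, CACGTG 51 to 46 bases and TATAAA 31 to 26 bases before the start, with no overlap between them. The Tgfb1 window, with a GC content of 75.2% against 56.4% for Csf1, 53.6% for Tgfb2 and a median of 52.4%, held the NF-kB motif 140 to 131 bases before the start. These matches are letters in a window and no evidence of binding. Windows were available for 7 of the 10 genes.

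The libraries held 124590777 UMIs in 13540 barcodes (Lang-DTA), 128595813 in 13600 (adult WT) and 137441575 in 12864 (young WT), of which 12941, 12621 and 12399 barcodes were kept. Gated cells with median UMIs per cell numbered 2401, 2175 and 1128 basal keratinocytes (10954, 13451 and 15856.5 UMIs), 1385, 1683 and 1413 Trdv4 T cells (5789, 7196 and 9193), 461, 369 and 394 fibroblasts, 126, 55 and 233 macrophages, and 2272, 1500 and 3929 lymphatic endothelial cells (9317, 5060.5 and 7888). Smaller keratinocyte gates were those high in Krt1 and Krt10, genes of the suprabasal layers (162, 132 and 103 cells), and those high in Krt79 and Krt17, genes of hair follicle and sebaceous duct epithelium (88, 76 and 50). Cells within 20% of the keratinocyte threshold numbered 157, 187 and 82, and within 20% of the Krt1 and Krt10 split 60, 46 and 39. Barcodes of no gate were read in further gates (mural cells, blood endothelium, chondrocytes, antigen presenting cells, other lymphocytes), for context.

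The Langerhans gate, at least 2 UMIs of Cd207, held 426 cells in adult WT and 575 in young WT, against 6 in Lang-DTA. In Lang-DTA the label did not hold. Of all 10 barcodes with at least 2 Cd207 UMIs there, 1 had a UMI of Epcam, an adhesion molecule of Langerhans cells, and 9 had Xcr1 or Clec9a, genes of cross-presenting dendritic cells. Among 472 such barcodes in adult WT and 640 in young WT, 98.5% and 95.8% had Epcam, and 0.847% and 2.34% had Xcr1 or Clec9a. Csf1r was seen in 1 of the 10 Lang-DTA barcodes, against 84.3% in adult WT and 92.5% in young WT. No level in this gate is therefore compared between genotypes.

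Il34 (chromosome 8, 110741829 to 110805924, GRCm38) was a keratinocyte and mural cell gene in all 3 libraries, and its level in keratinocytes was nearly the same with and without Langerhans cells. In basal keratinocytes it was at 95.6 CPM (92.0 to 99.4) in Lang-DTA, 86.2 CPM (83.0 to 89.6) in adult WT and 87.3 CPM (83.0 to 91.8) in young WT, from 2600, 2622 and 1537 UMIs. The Lang-DTA level was thus 1.11 times the adult WT level (1.05 to 1.17), a gap beyond counting error and well within the 1.5-fold used here to call a difference. Adult WT and young WT did not differ beyond counting error, with a ratio of 0.988 (0.927 to 1.05).

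The share of basal keratinocytes with an Il34 UMI was 52.6% in Lang-DTA, 54.1% in adult WT and 57.5% in young WT. At 2000 UMIs per cell (37, 28 and 17 shallower cells left out) it was 16.7%, 15.1% and 15.6%. The lowest such shares in any gate were 0%, in Lang-DTA macrophages and in the Langerhans cells of both wild types, where the unthinned shares were 0%, 1.17% and 0.522% at medians of 8186, 11508.5 and 13431 UMIs. The thinned shares in basal keratinocytes were thus far above these lowest ones. The level of free RNA was not measured, and its part was not tested.

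Among keratinocytes outside the Krt79 and Krt17 gate, Il34 was higher in cells with more Krt1 and Krt10. In cells with under 0.05% of their UMIs from these 2 keratin genes, Il34 was at 79.1 CPM in Lang-DTA, 73.9 CPM in adult WT and 70.2 CPM in young WT. Between 0.05% and 0.5% it was at 131, 119 and 120 CPM, and between 0.5% and 2% at 176, 155 and 173 CPM. The order was the same in each library, and neighbouring bins did not overlap in any of them. The last bin, from 2% to 5%, held only 12, 8 and 13 cells and is not read further.

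In the Krt1 and Krt10 gate as a whole Il34 was at 176 CPM (159 to 194) in Lang-DTA, 157 CPM (141 to 174) in adult WT and 183 CPM (165 to 202) in young WT. Neither the genotype ratio of 1.12 (0.969 to 1.30) nor the age ratio of 0.856 (0.737 to 0.994) reached 1.5-fold. The direction of the genotype ratio was not the same in both sexes: in male-called cells Il34 was at 137 CPM in Lang-DTA and 143 CPM in adult WT, and in female-called cells at 198 and 193 CPM. Basal cells showed 80.2 CPM in Lang-DTA and 78.2 CPM in adult WT among male-called cells, and 104 and 97.8 CPM among female-called cells. Female-called basal cells were thus higher than male-called ones in both adult libraries, though not in young WT (85.3 and 90.1 CPM), and Lang-DTA, with more female mice, had 1535 female-called and 724 male-called basal cells, against 861 and 1209 in adult WT.

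**Figure D1:**
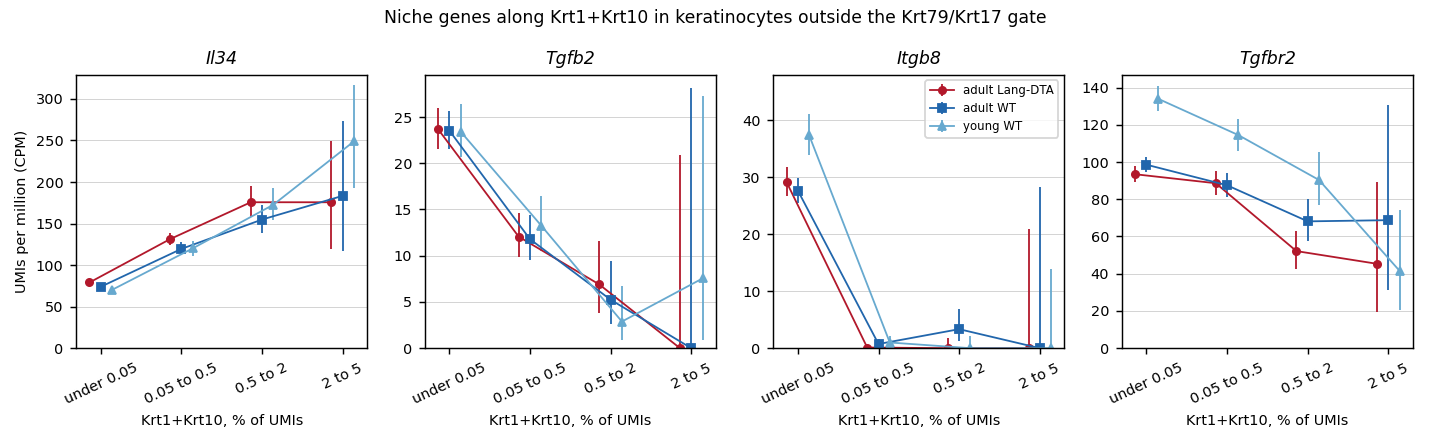
Level in CPM (vertical axes) of Il34, Tgfb2, Itgb8 and Tgfbr2 in keratinocytes binned by the share of their UMIs from Krt1 and Krt10 (horizontal axes, %), for each library. Points are CPM of summed UMIs and bars exact 95% counting intervals. Il34 was higher in each of the first 3 bins than in the one before it, and Itgb8 was at or under 3.33 CPM past the first bin in every library.

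Keratinocytes of the Krt79 and Krt17 gate held less Il34, at 36.0 CPM (24.7 to 50.9) in Lang-DTA, 31.3 CPM in adult WT and 33.0 CPM in young WT. These levels do not differ beyond their intervals. The other main source was mural cells, the pericytes and smooth muscle cells around vessels, at 138 CPM (120 to 158) in Lang-DTA, 183 CPM (165 to 201) in adult WT and 278 CPM (259 to 297) in young WT. The age ratio there was 0.659 (0.584 to 0.742). The genotype ratio of 0.754 (0.635 to 0.893) was within 1.5-fold, and its log2 value was 0.18 in male-called and -0.85 in female-called cells. The fibroblast marker sum in the mural gate was 5040 CPM in Lang-DTA, 1131 CPM in adult WT and 1056 CPM in young WT, and its part in the results for mural cells was not tested. Ordered by level, adult WT mural and Krt1/Krt10 cells overlapped at the top, while in Lang-DTA the Krt1/Krt10 cells and in young WT the mural cells were highest with no overlap.

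Fibroblasts showed Il34 at 11.5 CPM in Lang-DTA, 28.1 CPM in adult WT and 65.6 CPM in young WT, log2 ratios of -1.29 (-1.74 to -0.86) for genotype and -1.22 (-1.50 to -0.95) for age. These values moved with mural genes in the same gate. The mural marker sum (Rgs5, Acta2, Myh11) was 245 CPM in Lang-DTA, 531 CPM in adult WT and 2052 CPM in young WT, and 20.8%, 25.5% and 41.4% of gated fibroblasts had a UMI of one of them. Fibroblasts with such a UMI held Il34 at 32.2, 91.2 and 161 CPM. Those without one held 5.50, 5.81 and 4.15 CPM, from 23, 23 and 17 UMIs. Over both adult libraries these counts are under the minimum set for a ratio. Whether Il34 was lower in Lang-DTA among fibroblasts without a mural UMI was therefore not decided. Macrophages had no Il34 UMI in any library, and lymphatic cells were at 2.88, 1.71 and 3.11 CPM.

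**Figure D2:**
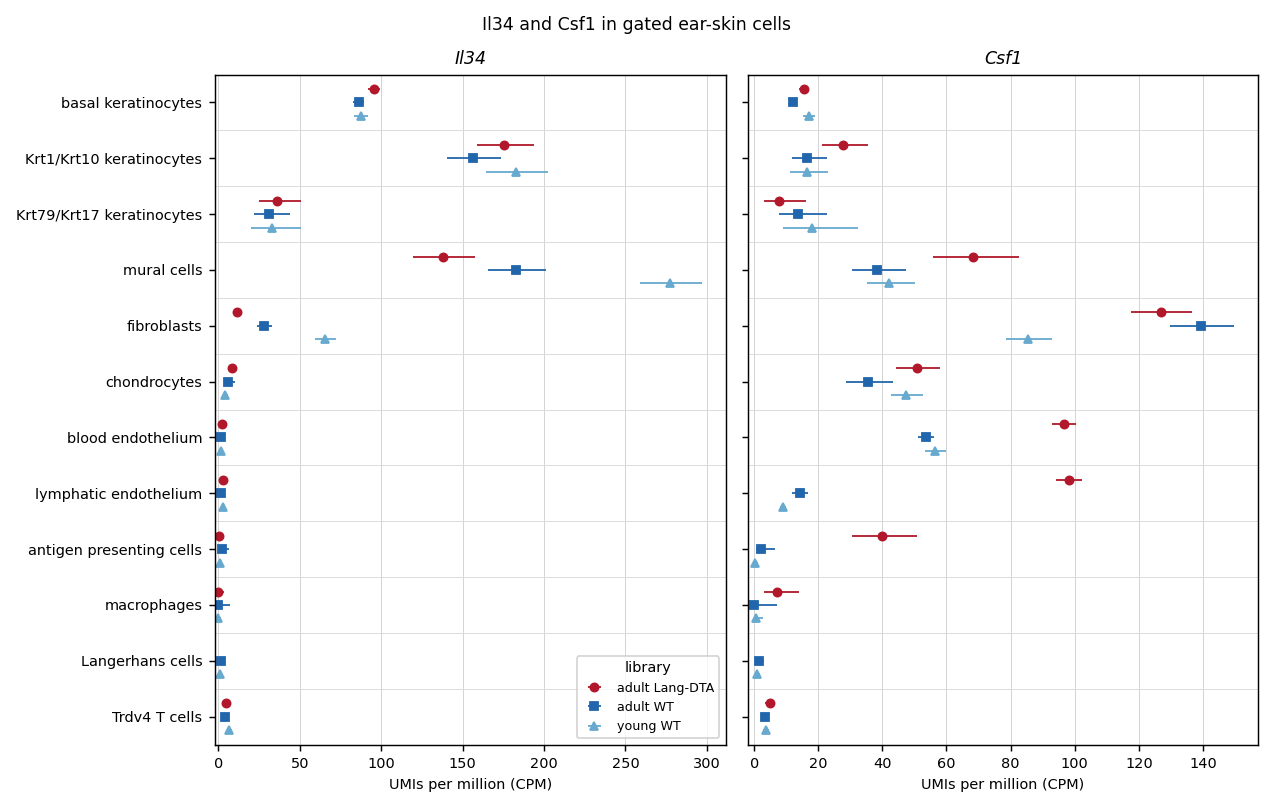
Il34 and Csf1 in CPM (horizontal axes) by gate (rows) and library, with exact 95% counting intervals. Langerhans cells of Lang-DTA (6 barcodes) are not drawn. Il34 is highest in Krt1/Krt10 keratinocytes and mural cells, and Csf1 in lymphatic endothelium stands at 98.2 CPM in Lang-DTA against 14.2 and 9.03 CPM in the wild types.

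Csf1 (chromosome 3, 107741048 to 107760469), the other CSF1R ligand gene, was mainly a gene of the dermis and of vessels. In lymphatic endothelium it was at 98.2 CPM (94.2 to 102) in Lang-DTA, 14.2 CPM (11.8 to 16.9) in adult WT and 9.03 CPM (8.05 to 10.1) in young WT, from 2285, 125 and 308 UMIs. Lang-DTA was 6.91-fold higher than adult WT (5.77 to 8.34), and 97.2% of measured genes in these cells had a ratio at or below that of Csf1. A larger ratio, 17.7 (5.80 to 88.2), was that of antigen presenting cells, from 64 UMIs in Lang-DTA and 3 in adult WT. In lymphatic cells 43.1% of 12646 genes passed 1.5-fold between genotypes, against 5.36% of 12860 in basal keratinocytes, and 5 of the 8 niche genes measured there did.

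The share of lymphatic cells with a Csf1 UMI was 23.7% in Lang-DTA, 5.20% in adult WT and 5.47% in young WT, and at 2000 UMIs per cell (50, 94 and 105 shallower cells left out) 9.86% (8.65 to 11.2), 1.49% and 1.23%. The lowest thinned shares of Csf1 in any gate were 0.447% in Lang-DTA (T cells, median 5789 UMIs) and 0% in both wild types (macrophages in adult WT, median 7961, and Krt79/Krt17 keratinocytes in young WT, median 11638). Both sexes showed the difference, with 96.1 CPM in Lang-DTA and 18.2 CPM in adult WT among male-called cells, and 105 and 10.8 CPM among female-called cells.

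Within the lymphatic gate, Csf1 followed Gdf15, the gene of a stress-induced cytokine of the TGF-beta superfamily, in Lang-DTA alone. Cells with a Gdf15 UMI were 45.3% of the gate in Lang-DTA, 17.8% in adult WT and 22.98% in young WT, and held Csf1 at 142, 5.45 and 8.09 CPM. Cells without one held it at 49.3, 16.5 and 9.38 CPM. In both subsets Lang-DTA was therefore the highest, and in adult WT the Gdf15-positive subset was the lower one. The shares of cells with a Gdf15 UMI were not thinned, at medians of 9317, 5060.5 and 7888 UMIs per cell.

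Lyve1, the hyaluronan receptor gene of lymphatic capillaries, split the gate in another way. Csf1 was at 79.8, 10.4 and 6.54 CPM in Lyve1-positive cells and 132, 20.2 and 13.7 CPM in the others, so that it was higher in cells without a Lyve1 UMI in all 3 libraries. Lang-DTA also had more lymphatic cells with a UMI of Mki67, a gene of dividing cells, 9.46% against 0.867% in adult WT and 4.30% in young WT. These shares were not thinned either, and adult WT cells were the shallowest. Lang-DTA cells with a Mki67 UMI held less Csf1 (48.3 CPM) than the other Lang-DTA cells (106 CPM). The lymphatic marker sum was 5505 CPM in Lang-DTA, 14163 CPM in adult WT and 9927 CPM in young WT, with all 5 markers detected and Ccl21a, a chemokine that draws dendritic cells into lymphatics, at 2440, 8406 and 3938 CPM. The erythroid marker sum in the gate was 107, 200 and 3.08 CPM, and the fibroblast marker sum 170, 169 and 242 CPM. The part of these shifts in the Csf1 difference was not tested.

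**Figure D3:**
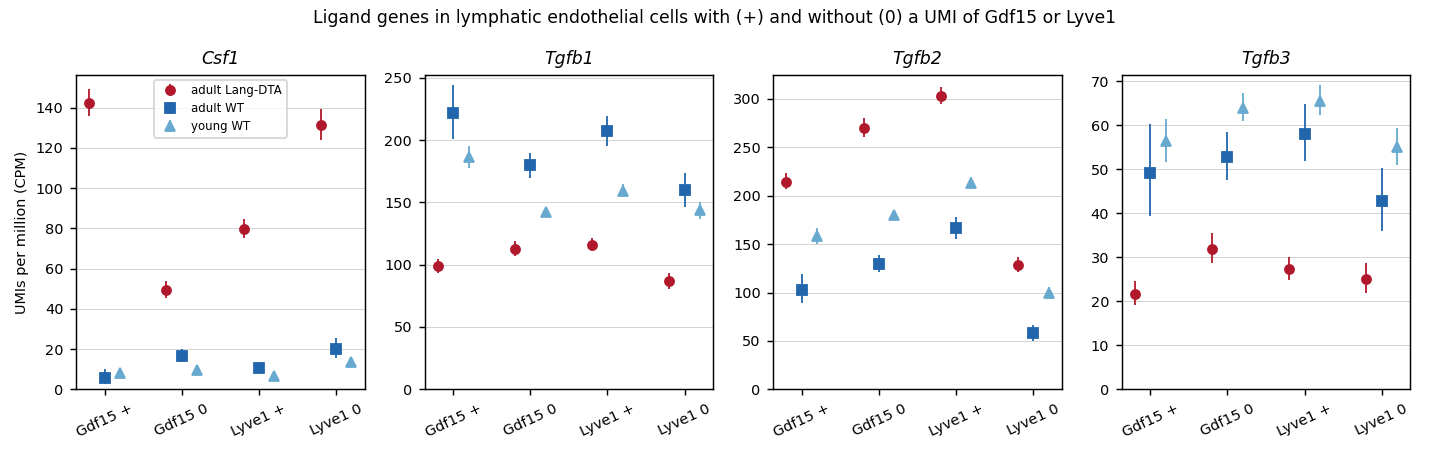
CPM of Csf1, Tgfb1, Tgfb2 and Tgfb3 (vertical axes) in lymphatic endothelial cells with and without a UMI of Gdf15 or Lyve1, by library, with exact 95% counting intervals. Within each subset Lang-DTA is above both wild types for Csf1 and Tgfb2 and below them for Tgfb1 and Tgfb3.

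In blood endothelium Csf1 was at 96.6 CPM in Lang-DTA, 53.6 CPM in adult WT and 56.5 CPM in young WT. The genotype ratio was 1.80 (1.70 to 1.92), where 13.1% of all genes passed 1.5-fold, with 98.7 and 56.8 CPM in male-called and 98.5 and 48.3 CPM in female-called cells. Mural cells showed 68.3, 38.3 and 42.1 CPM (genotype ratio 1.78, 1.33 to 2.40, among 21.3% of genes past 1.5-fold). The fibroblast marker sum of the mural gate, 5040 CPM in Lang-DTA and 1131 CPM in adult WT, moved the same way, and its part was not tested. Csf1 was higher in Lang-DTA in each of the 3 vessel gates.

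Fibroblasts had the highest Csf1 of all gates in each library, at 127 CPM in Lang-DTA, 139 CPM in adult WT and 85.5 CPM in young WT. They did not differ between genotypes beyond counting error (ratio 0.910, 0.819 to 1.01) and were 1.63-fold higher in adult WT than in young WT (1.46 to 1.82). In keratinocytes Csf1 was low. Basal cells held 15.5 CPM (14.0 to 17.0) in Lang-DTA, 12.2 CPM (10.96 to 13.5) in adult WT and 17.0 CPM (15.1 to 19.0) in young WT, and neither ratio reached 1.5-fold. Krt1/Krt10 cells held 27.6 CPM in Lang-DTA and 16.6 CPM in adult WT, a ratio of 1.66 (1.09 to 2.58) resting on 61 and 37 UMIs. It was the only niche gene of 5 measured there past 1.5-fold, where 5.46% of 7870 genes were.

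Csf2 (chromosome 11, 54247271 to 54249667) was found almost entirely in lymphocytes at this depth. In Trdv4 T cells, which carry the T cell receptor chain of dendritic epidermal T cells, it was at 12.0 CPM (9.88 to 14.5) in Lang-DTA, 7.69 CPM (6.26 to 9.36) in adult WT and 3.79 CPM (2.84 to 4.96) in young WT, from 109, 100 and 53 UMIs. The genotype ratio was 1.56 (1.18 to 2.07) and the age ratio 2.03 (1.44 to 2.89). Intervals of Lang-DTA and adult WT did not overlap, and adult WT did not overlap young WT. At 2000 UMIs per cell the share with a UMI was 1.94%, 1.83% and 1.0% (unthinned 5.92%, 5.05% and 3.33%), so the shares of the 2 adult libraries were nearly equal. In Krt1/Krt10 keratinocytes the thinned share was 0% in every library, for Csf2 as for Csf1r.

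Both sexes kept this order of Csf2, at 15.3, 8.63 and 3.88 CPM in male-called and 12.4, 7.69 and 3.53 CPM in female-called T cells. Other lymphocytes held 13.2, 14.1 and 10.0 CPM. No Csf2 UMI was found in any keratinocyte, Langerhans, macrophage or fibroblast gate, which in basal keratinocytes allows up to 0.110 CPM in Lang-DTA, 0.0987 CPM in adult WT and 0.170 CPM in young WT (3 counts of the total). Lymphatic cells had 3 UMIs in Lang-DTA and 0 in each wild type.

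Csf1r, the receptor gene, marked macrophages, Langerhans cells and antigen presenting cells. In Langerhans cells it was at 240 CPM (227 to 253) in adult WT and 358 CPM (345 to 371) in young WT, a ratio of 0.669 (0.627 to 0.714) that just failed 1.5-fold. UMIs were 1348 and 2899, and the share of cells with one was 85.2% and 92.5%, or 36.4% and 50.4% at 2000 UMIs per cell. Male-called cells held 249 CPM in adult WT and 396 CPM in young WT, and female-called cells 257 and 323 CPM. Without the cells that carried a UMI of Ccr7, the receptor of emigrating dendritic cells, the levels were 245 and 359 CPM.

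Macrophages showed the same age ratio of Csf1r, 0.669 (0.577 to 0.772), with 457 CPM (418 to 498) in Lang-DTA, 412 CPM (358 to 471) in adult WT and 616 CPM (586 to 646) in young WT. Lang-DTA and adult WT macrophages overlapped. Antigen presenting cells were at 114, 114 and 120 CPM. No keratinocyte gate exceeded 0.739 CPM. Blood endothelium was at 1.39 CPM in Lang-DTA, 1.47 CPM in adult WT and 5.92 CPM in young WT, and T cells were at 4.64, 2.0 and 3.29 CPM, a genotype ratio of 2.32 (1.39 to 3.94) from 42 and 26 UMIs.

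**Figure D4:**
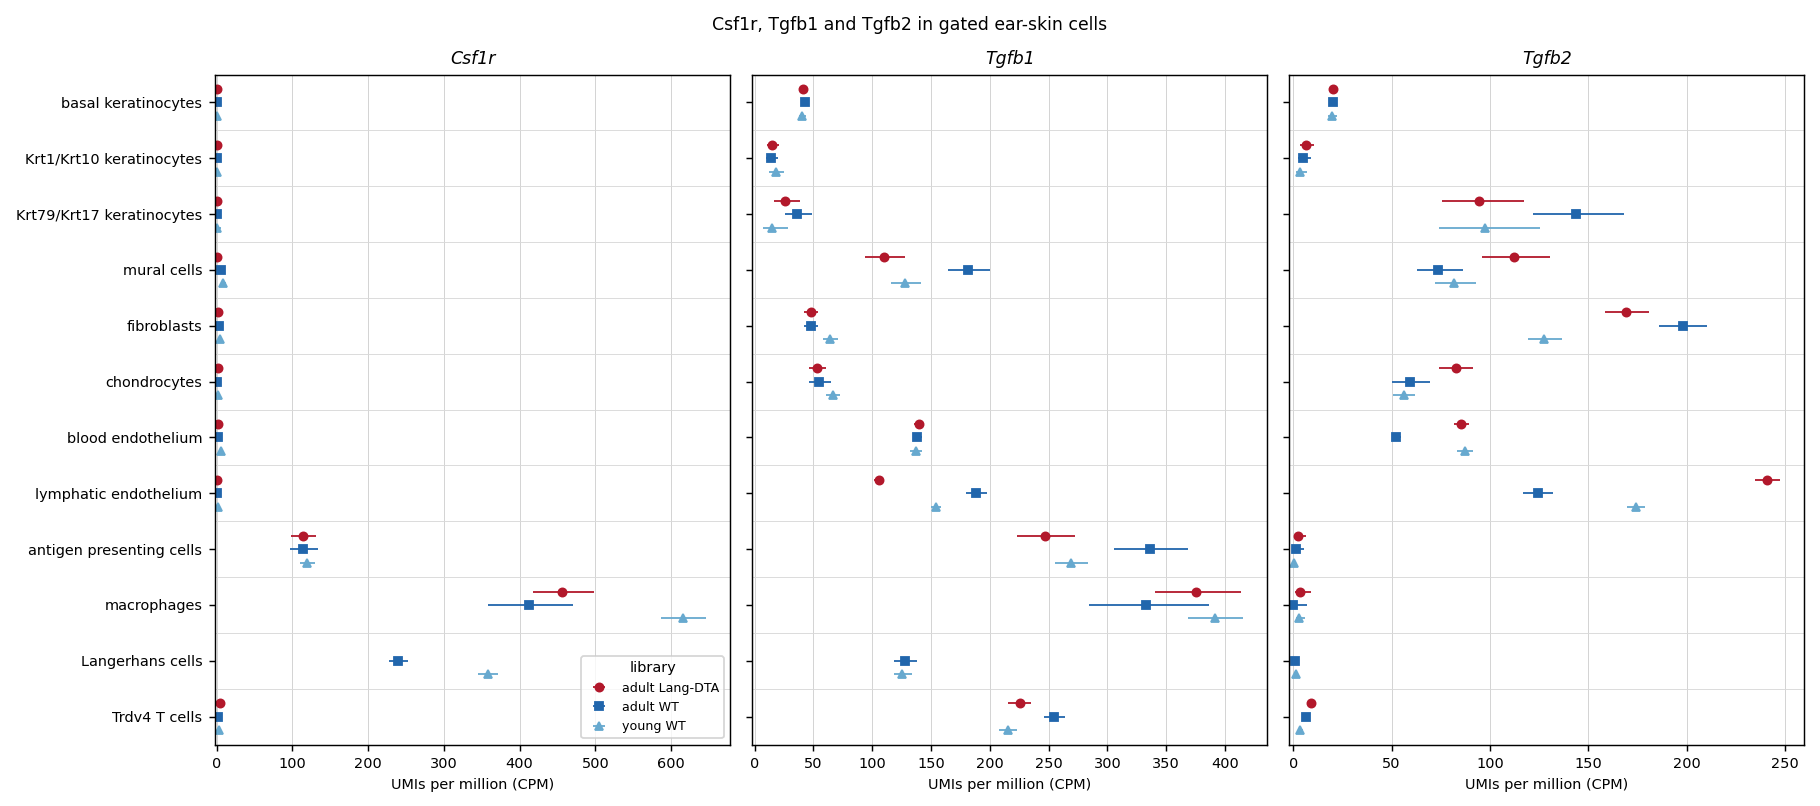
Csf1r, Tgfb1 and Tgfb2 in CPM (horizontal axes) by gate (rows) and library, with exact 95% counting intervals. Langerhans cells of Lang-DTA (6 barcodes) are not drawn. Csf1r is near 0 outside macrophages, Langerhans cells and antigen presenting cells, and lymphatic cells of Lang-DTA are lower in Tgfb1 (105 CPM against 188 in adult WT) and higher in Tgfb2 (241 against 124).

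Tgfb1 (chromosome 7, 25687002 to 25705077), the TGF-beta gene that Langerhans cells themselves are known to need, was a gene of leukocytes and vessels. Langerhans cells held 128 CPM (119 to 138) in adult WT and 126 CPM (118 to 134) in young WT, which overlap. Trdv4 T cells, their neighbours in the epidermis, held 225 CPM (216 to 235) in Lang-DTA, 255 CPM (246 to 264) in adult WT and 216 CPM (208 to 223) in young WT. The genotype ratio of 0.884 (0.837 to 0.935) and the age ratio of 1.18 (1.13 to 1.24) were beyond counting error and within 1.5-fold. Basal keratinocytes held 41.1, 42.9 and 40.7 CPM, with overlapping intervals, and macrophages 376, 333 and 391 CPM.

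The exceptions were lymphatic and mural cells. Lymphatic cells held Tgfb1 at 105 CPM (101 to 110) in Lang-DTA, 188 CPM (180 to 198) in adult WT and 154 CPM (150 to 158) in young WT, a genotype ratio of 0.560 (0.526 to 0.596). At 2000 UMIs per cell 18.7%, 28.0% and 22.3% of cells had a UMI (unthinned 51.7%, 49.5% and 55.5%). The lowest thinned shares of any gate were 1.24% and 1.56% in Krt1/Krt10 keratinocytes of Lang-DTA and adult WT and 2.08% in Krt79/Krt17 keratinocytes of young WT, at medians of 12528, 16050 and 11638 UMIs. The gap was present in male-called cells (101 CPM in Lang-DTA and 187 CPM in adult WT), in female-called cells (106 and 187), with a Gdf15 UMI (98.7 and 222) and without one (113 and 180). Mural cells showed 110 CPM in Lang-DTA, 182 CPM in adult WT and 128 CPM in young WT, a genotype ratio of 0.606 (0.503 to 0.728). Blood endothelium, at 140, 138 and 138 CPM, did not differ beyond counting error. In the mural gate the fibroblast marker sum was 5040, 1131 and 1056 CPM, and its part in that result was not tested.

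Tgfb2 (chromosome 1, 186622792 to 186705989) was highest in lymphatic cells in Lang-DTA and young WT and in fibroblasts in adult WT. Lymphatic cells held 241 CPM (235 to 247) in Lang-DTA, 124 CPM (117 to 132) in adult WT and 174 CPM (170 to 179) in young WT, with no overlap between any of the 3 libraries. The genotype ratio was 1.94 (1.82 to 2.07), in the opposite direction to Tgfb1 in the same cells. At 2000 UMIs per cell 30.0%, 18.6% and 24.1% of cells had a UMI (unthinned 58.7%, 36.5% and 51.7%). The lowest thinned shares were 0.826% and 0% in macrophages of Lang-DTA and adult WT and 0% in Krt1/Krt10 keratinocytes of young WT, at medians of 8186, 7961 and 18802 UMIs. The gap was seen in Lyve1-positive cells (303, 166 and 214 CPM) and in the others (128, 57.9 and 99.5 CPM).

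Blood endothelium held Tgfb2 at 85.4 CPM in Lang-DTA, 52.4 CPM in adult WT and 87.3 CPM in young WT, so that adult WT was the low library (genotype ratio 1.63, 1.53 to 1.74, and age ratio 0.60, 0.562 to 0.641). Mural cells held 112, 73.8 and 81.9 CPM (genotype ratio 1.52, 1.22 to 1.90, among 21.3% of genes past 1.5-fold), with the fibroblast marker sum there at 5040 CPM in Lang-DTA and 1131 CPM in adult WT. Fibroblasts held 169, 198 and 128 CPM, 1.55-fold higher in adult WT than in young WT (1.42 to 1.70).

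In keratinocytes Tgfb2 was a gene of the Krt79 and Krt17 gate, at 94.6 CPM (75.5 to 117) in Lang-DTA, 144 CPM (122 to 168) in adult WT and 97.3 CPM (74.1 to 126) in young WT. The genotype ratio was 0.659 (0.499 to 0.865), the only 1 of 7 niche genes past 1.5-fold there, where 10.8% of 6032 genes were. It rested on 84 and 156 UMIs, and the log2 value was -2.45 in male-called cells (25 and 44 cells) and 0.14 in female-called cells (55 and 27), so its direction was not the same in both. Basal cells held 20.01, 20.4 and 19.9 CPM. Cells under 0.05% Krt1 and Krt10 were at 23.7, 23.5 and 23.4 CPM and those between 0.5% and 2% at 6.89, 5.24 and 2.88 CPM, an order opposite to that of Il34.

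Tgfb3 (chromosome 12, 86056745 to 86079041) was led by chondrocytes, at 153, 142 and 170 CPM, and by fibroblasts, at 114 CPM in Lang-DTA, 84.4 CPM in adult WT and 81.4 CPM in young WT. In chondrocytes 0 of 8 niche genes measured passed 1.5-fold between genotypes, where 6.64% of genes did. Lymphatic cells held 26.6 CPM (24.5 to 28.7) in Lang-DTA, 52.1 CPM (47.4 to 57.1) in adult WT and 61.9 CPM (59.3 to 64.6) in young WT, a genotype ratio of 0.510 (0.451 to 0.577). In these cells 2 of the 3 TGF-beta genes were therefore lower and 1 higher in Lang-DTA. Mural cells held 105, 50.9 and 58.1 CPM (genotype ratio 2.06, 1.61 to 2.65, among 21.3% of genes past 1.5-fold), in the gate whose fibroblast marker sum was 5040 CPM in Lang-DTA and 1131 CPM in adult WT.

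In Trdv4 T cells Tgfb3 was at 8.61 CPM in Lang-DTA, 2.15 CPM in adult WT and 4.86 CPM in young WT, a genotype ratio of 4.00 (2.57 to 6.40) from 78 and 28 UMIs. Among T cells with a UMI of Trdc, Cd3e or Cd3g the levels were 5.31, 2.17 and 3.25 CPM, and in the 65, 117 and 36 gated barcodes without one they were 57.2, 2.01 and 52.8 CPM. The fibroblast marker sum in this gate was 467, 101 and 229 CPM, in the same order as Tgfb3, and its part in the result was not tested. With Csf2 and Csf1r, Tgfb3 made 3 of 9 niche genes past 1.5-fold between genotypes in T cells, all higher in Lang-DTA, where 9.29% of 11845 genes passed, 7.09% as higher and 2.2% as lower.

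Tgfbr1 (chromosome 4, 47353222 to 47414931), the kinase that passes the signal on, was within 1.5-fold between genotypes in all but a pair of the gates where it was measured. Basal keratinocytes held 70.7 CPM in Lang-DTA, 78.7 CPM in adult WT and 72.3 CPM in young WT, and T cells 82.6, 94.5 and 72.1 CPM. Langerhans cells held 100 CPM (92.3 to 109) in adult WT and 113 CPM (106 to 121) in young WT. Macrophages were lower in Lang-DTA, at 89.7 CPM (73.1 to 109) in Lang-DTA, 151 CPM (119 to 188) in adult WT and 125 CPM (112 to 139) in young WT. That genotype ratio of 0.595 (0.438 to 0.810) rested on 101 and 78 UMIs, and it was the only 1 of 4 niche genes past 1.5-fold in macrophages, where 12.8% of 5077 genes were. Other lymphocytes, which carry Cd3e, Cd3g, Trac or Il7r and no Trdv4, were higher in Lang-DTA, with Tgfbr1 at 181 CPM (161 to 204) in Lang-DTA, 112 CPM (100 to 124) in adult WT and 119 CPM (104 to 136) in young WT. That genotype ratio was 1.63 (1.38 to 1.91), where 9.13% of genes passed 1.5-fold.

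Tgfbr2 (chromosome 9, 116084293 to 116175360), which binds the ligand, was high in T cells and endothelium and in T cells did not differ between genotypes beyond counting error, at 445 CPM (431 to 459) in Lang-DTA, 447 CPM (436 to 459) in adult WT and 545 CPM (533 to 558) in young WT. Young WT was above adult WT for this gene in basal keratinocytes (95.6 CPM in adult WT and 127 CPM in young WT), Langerhans cells (51.4 and 65.0), lymphatic cells (516 and 706) and blood endothelium (196 and 310), where only the last ratio, 0.632 (0.611 to 0.654), passed 1.5-fold, as 15.7% of genes did. Lang-DTA lymphatic cells were lower still, at 365 CPM (357 to 373), 0.707 times adult WT. Krt1/Krt10 keratinocytes held 51.6, 68.2 and 83.9 CPM.

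Itgb8 (chromosome 12, 119158022 to 119238802), for the activating integrin chain, was among keratinocytes a gene of basal-gate cells lowest in Krt1 and Krt10 and of the Krt79 and Krt17 gate. Whether those basal-gate cells were interfollicular or of the hair follicle was not tested. Outside keratinocytes, chondrocytes held 34.3 CPM in Lang-DTA, 34.3 CPM in adult WT and 29.2 CPM in young WT, and Schwann cells, 19, 16 and 22 in number, held 199, 133 and 266 CPM. Basal cells held 19.9 CPM (18.3 to 21.7) in Lang-DTA, 20.4 CPM (18.8 to 22.0) in adult WT and 24.9 CPM (22.6 to 27.3) in young WT. Almost all of it was in cells under 0.05% Krt1 and Krt10, at 29.1, 27.6 and 37.4 CPM, while the next bin held 0.116, 0.729 and 0.994 CPM. Krt79/Krt17 cells held 93.5 CPM (74.5 to 116) in Lang-DTA, 71.8 CPM (56.7 to 89.6) in adult WT and 69.3 CPM (49.9 to 93.6) in young WT, with overlapping intervals.

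Langerhans cells held Itgb8 at 7.82 CPM in adult WT and 0.988 CPM in young WT. Of the 44 UMIs in adult WT, 39 were in the 9 cells with a Ccr7 UMI, and without those cells the levels were 0.911 and 0.999 CPM. Lymphatic cells held 6.10 CPM in Lang-DTA, 6.93 CPM in adult WT and 20.3 CPM in young WT, with an age ratio of 0.341 (0.258 to 0.444) and overlapping adult libraries.

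**Figure D5:**
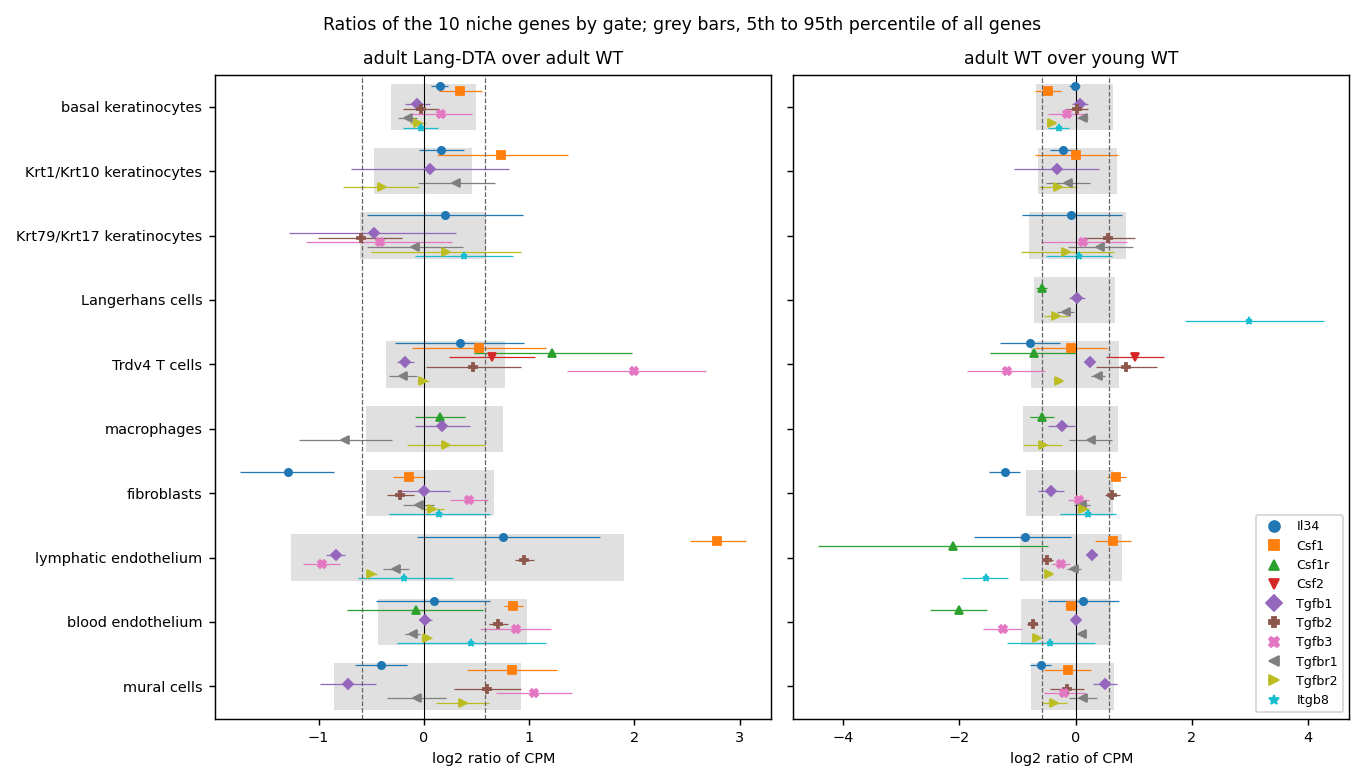
Log2 ratios of CPM (horizontal axes) of the niche genes in 10 gates (rows), adult Lang-DTA over adult WT on the left and adult WT over young WT on the right, with exact 95% counting intervals. Grey bars span the 5th to 95th percentile of all measured genes of the gate and dashed lines mark 1.5-fold. Basal keratinocytes hold no niche gene past 1.5-fold, and among the gates drawn Csf1 in lymphatic cells lies furthest out between genotypes. Antigen presenting cells, other lymphocytes and chondrocytes are not drawn.

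Counted over the gates of the list's own rule, 12 of 49 pairs of a niche gene and a gate with at least 50 UMIs passed 1.5-fold between genotypes, 7 of them higher and 5 lower in Lang-DTA. Over the same gates the share of all genes past 1.5-fold ran from 5.36% in basal keratinocytes to 43.1% in lymphatic cells. The keratinocyte gates gave 2 of 20 pairs, where 5.36% (basal), 5.46% (Krt1/Krt10) and 10.8% (Krt79/Krt17) of all genes passed. Basal keratinocytes gave 0 of 8. Lymphatic cells gave 5 of 8 (Il34, Csf1 and Tgfb2 higher, Tgfb1 and Tgfb3 lower), where 24.9% of all genes were higher and 18.2% lower. The Il34 ratio there, 1.69 (0.955 to 3.18), rested on 67 and 15 UMIs and was within counting error. Fibroblasts gave 1 of 8, the Il34 value that moved with mural genes, against 11.1% of genes.

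Between adult WT and young WT 13 of 54 pairs passed 1.5-fold, 6 higher and 7 lower in adult WT. Over these gates the share of all genes ran from 12.9% to 23%. The keratinocyte gates gave 0 of 19, where 12.9% (basal), 13.6% (Krt1/Krt10) and 23% (Krt79/Krt17) of all genes passed. T cells gave 5 of 9 (Csf2 and Tgfb2 higher, Il34, Csf1r and Tgfb3 lower), against 16.1% of genes (7.74% higher and 8.4% lower), all at levels under 8 CPM. Langerhans cells gave 1 of 5 (Itgb8) against 14.4%, fibroblasts 3 of 8 against 17% (Csf1 and Tgfb2 higher, Il34 lower), lymphatic cells 4 of 9 against 19.5% (Csf1 higher, Il34, Csf1r and Itgb8 lower) and macrophages 0 of 4 against 20.2%. The 2 comparisons share the adult WT library and are not independent of each other.

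Wider lists of pathway genes, which hold the niche genes too, were counted in basal keratinocytes, where 5.36% of all genes passed 1.5-fold between genotypes. There 1 of 8 measured genes of the CSF1R and CSF2 axis was higher past 1.5-fold (Csf2rb2) and 1 lower (Tyrobp), 1 of 15 TGF-beta receptor and Smad genes was higher (Eng), and of 14 TGF-beta target genes 0 were higher and 1 lower (Itgae). List medians were 0.13, -0.01 and 0.05 on the log2 scale, against -0.00 for all genes. Of 9 BMP and activin ligand genes 1 was higher, Gdf15, with 156 UMIs in Lang-DTA and 5 in adult WT (5.74 and 0.164 CPM), and of 11 positioning genes 2 were higher, Ccl2 (10.2 and 3.03 CPM) and Jam3, with 0 lower in either list. Each of these genes was at or under 10.2 CPM and is named after its values were seen, since none reached the 30 CPM asked of a named gene. Gdf15 and Ccl2 were far higher in Lang-DTA lymphatic cells, at 2235 and 798 CPM, against 233 and 27.7 CPM in adult WT. The part of free RNA in their basal values was not tested. Of 19 latency and activation genes 3 were higher (Dcn, Fbn1 and Nrros). Dcn, which codes for a matrix proteoglycan that binds TGF-beta, was at 60.7 CPM in Lang-DTA and 19.8 CPM in adult WT. Dcn is also a fibroblast marker, and the fibroblast marker sum in basal cells was 121 CPM in Lang-DTA, 38.2 CPM in adult WT and 79.5 CPM in young WT. Its part in the result was not tested. Between adult WT and young WT 12.9% of all genes passed 1.5-fold in basal cells. Of 9 genes of the CSF1R and CSF2 axis 0 were higher and 4 lower there. The lower ones were Ptprz1, at 78.5 CPM in adult WT and 121 CPM in young WT, and Csf2ra, Tyrobp and Spi1. The last 3 were at or under 1.38 CPM in adult WT and 3.98 CPM in young WT. Latency and activation genes gave 1 higher and 5 lower of 19, and receptor and Smad genes 0 of 15 in either direction. TGF-beta targets gave 1 higher and 1 lower of 14, BMP and activin ligands 0 higher and 3 lower of 8, and positioning genes 2 higher and 3 lower of 11.

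In the Krt79 and Krt17 gate 1 of 6 measured genes of Langerhans positioning and retention was higher past 1.5-fold and 0 lower, 2 of 12 TGF-beta target genes were higher and 0 lower, and of 12 latency and activation genes 1 was higher and 1 lower, against 10.8% of all genes. Ccl20, whose product draws cells with CCR6, was at 226 CPM in Lang-DTA and 48.8 CPM in adult WT there. Ctgf, a TGF-beta target gene, was at 99.1 and 31.3 CPM, and Dcn at 209 and 94.8 CPM. Ltbp1, which anchors latent TGF-beta to matrix, was at 45.1 and 91.1 CPM. The fibroblast marker sum in that gate was 309 CPM in Lang-DTA, 102 CPM in adult WT and 19.8 CPM in young WT, with no test of its part. In Krt1/Krt10 cells 0 of 7 positioning genes were higher and 2 lower, against 5.46% of all genes. Of 4 measured genes of the CSF1R and CSF2 axis 2 were higher there, Csf1 among them, and 0 lower. The median log2 ratio of that axis was 0.40, against -0.0009 for all genes. The latency, receptor and Smad, target, and BMP and activin lists gave 0 in either direction there, of 9, 11, 11 and 3 genes. Ccl27a, a keratinocyte chemokine gene for skin-homing T cells, was at 120 CPM in Lang-DTA and 203 CPM in adult WT in these cells. With age it was higher, at 327 CPM in adult WT and 106 CPM in young WT in basal cells.

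In lymphatic cells of Lang-DTA the CSF and latency lists held genes past 1.5-fold in both directions and the receptor list only lower ones. The CSF1R and CSF2 axis had 4 of 9 genes higher and 4 lower (median 0.56 against 0.08 for all genes), latency and activation genes 5 higher and 4 lower of 17 (median -0.17), and receptors and Smads 0 higher and 4 lower of 15 (median -0.33), in a gate where 24.9% of all genes were higher and 18.2% lower. Gdf15 was at 2235 CPM in Lang-DTA and 233 CPM in adult WT, and Ccl2, the gene of a monocyte chemokine, at 798 and 27.7 CPM. Thbs1, whose product can free TGF-beta from its latent form, was at 280 and 27.1 CPM, and Tslp, an epithelial cytokine gene, at 127 and 13.8 CPM. The 4 lower receptor and Smad genes, named after their values were seen, were Tgfbr3, Acvrl1, Smad6 and Bambi. Tgfbr3, a co-receptor gene, was at 134 and 262 CPM. In blood endothelium, where 13.1% of all genes passed 1.5-fold, Gdf15, Ccl2, Thbs1 and Tslp were higher in Lang-DTA too. There these genes were at 395, 296, 99.9 and 34.1 CPM in Lang-DTA, against 10.1, 1.92, 25.2 and 10.7 CPM in adult WT.

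In Trdv4 T cells of Lang-DTA 5 of 10 genes of the CSF1R and CSF2 axis and 7 of 15 latency and activation genes were higher, with 0 and 1 lower, where 7.09% of all genes were higher and 2.2% lower, at medians of 0.58 and 0.51 against 0.04 for all genes, while 0 of 14 receptor and Smad genes passed 1.5-fold. TGF-beta targets gave 4 higher and 0 lower of 15, BMP and activin ligands 3 and 0 of 6, and positioning genes 4 and 1 of 12. Gdf15 was at 31.6 CPM in Lang-DTA and 0.231 CPM in adult WT, from 286 and 3 UMIs. Ctgf was at 99.5 CPM in Lang-DTA and 8.08 CPM in adult WT, Thbs1 at 67 and 9.15 CPM, and Dcn at 250 and 41.5 CPM. Ctgf, Thbs1 and Dcn are also genes of fibroblasts, whose marker sum moved with genotype in this gate as given above. Gdf15, Thbs1 and Ctgf were higher in Lang-DTA lymphatic cells too. The part of RNA from other cells was not tested.

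In adult WT Langerhans cells against young WT ones, the lists gave 0 higher and 1 lower of 7 for the CSF1R and CSF2 axis (Sdc1), 3 and 0 of 11 for latency and activation (Itgb8, Thbs1 and Dcn), 1 and 0 of 14 for receptors and Smads (Tgfbr3), and 1 higher and 2 lower of 13 for targets (Runx3, and Tgfbi and Ctgf). Their medians were -0.25, 0.10, -0.12 and -0.06 on the log2 scale, against -0.09 for all genes, of which 14.4% passed 1.5-fold. Runx3, a transcription factor gene needed for Langerhans cells in mice, was at 841 CPM in adult WT and 557 CPM in young WT. Ccr7 was at 46.2 and 3.95 CPM. Only 2.33% of adult WT and 0.625% of young WT barcodes with at least 2 Cd207 UMIs had a Ccr7 UMI. As given above, most Itgb8 UMIs of adult WT Langerhans cells were in cells with a Ccr7 UMI.

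The genes with the most similar pattern were found by Pearson's r of log2(CPM + 1) over the 38 pairs of a gate and a library with at least 50 cells, among 8275 genes. These points share cells of the same 3 libraries and are not independent, so r is a description. Il34 was closest to Ror1 (0.93), Sema5a (0.90) and Zfp804b (0.90), and Csf1 to Ginm1, Scfd1 (both 0.82) and Clu (0.81). For Csf1r these were Clec4n, Gm6377 and Adgre1 (all 0.96), the last of which codes for the macrophage antigen F4/80. The nearest genes were Lyn, Ifnar1 and Fes for Tgfb1 (all 0.94), Dpysl3, Parva (both 0.93) and Smtn (0.92) for Tgfb2, and Setbp1 (0.96), Dkk3 and Sgcd (both 0.93) for Tgfb3. Tgfbr1 was closest to Chd4 (0.77), Tgfbr2 to St3gal6 (0.90), and Itgb8 to Sema3e, Lgr5 and Pthlh (all 0.79).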

How the data were processed

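Droplet 3′ single-cell RNA libraries were made from 3 pools of mice, 1 library for each group. The UMI counts per gene and barcode were deposited by the authors as filtered matrices, not normalized. They were made with Cell Ranger (8.01 per the submitters' processing notes, 8.0.1 per the file headers) on GRCm38. Which annotation release was used, whether intronic reads were counted and whether free RNA was corrected for is not given in the sources used here. Reads from overlapping genes could not be checked.

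A barcode was kept from 500 genes and 1000 UMIs up, if no more than 10% of its UMIs were mitochondrial. Gates used raw UMIs: keratinocytes by Krt5 and Krt14 (at least 0.3% of UMIs), split first by Krt79 and Krt17 (0.1%) and then by Krt1 and Krt10 (0.5%), Langerhans cells by Cd207 (2), T cells by Trdv4 (1), macrophages by C1qa, C1qb and C1qc together (5), fibroblasts by Dpt (2) and lymphatic endothelium by Prox1 (2). Barcodes in more than 1 gate (172 in Lang-DTA, 162 in adult WT, 207 in young WT) were left out as likely doublets. Calls from simulated doublets were used as an alternative. Their number was set beforehand at 0.4% per 1000 barcodes of the library, which gave 5.42%, 5.44% and 5.15% of barcodes. These shares are therefore a setting and no measured doublet rate. Libraries shared 39 to 50 barcode sequences in pairs. Trgc1, a listed T cell marker, was not matched.

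Levels are summed UMIs per 1000000 of the gate. Level intervals are exact Poisson, share and ratio intervals exact binomial (95%). Ratios were read for genes with at least 50 UMIs over both libraries and called past 1.5-fold, with no test. Scaling by the median of ratios moved log2 age ratios by up to 0.11 (basal and Krt79/Krt17 keratinocytes, blood endothelium). For shares, cells were thinned to 2000 UMIs. Cells were called male or female from Y-linked transcripts and Xist. Genes to be named were all niche genes and up to 4 list genes per gate and comparison, by the interval limit nearest 0. List genes had to be past 1.5-fold with at least 100 UMIs over both libraries and 30 CPM in the higher. The text does not follow this throughout. Some list genes that met it are not given, as in fibroblasts, macrophages and mural cells, and some named beside the list counts did not meet it. The NF-kB motif was searched in its degenerate form, chosen after a stricter form had matched the Csf1 window. Similar genes were the 3 with the highest r among genes reaching 50 CPM. The niche genes, lists and gates were chosen with earlier results of these data known. Tested on simulated counts, the ratio step gave a median log2 of 1.00 for 2-fold changes in basal cells (12860 genes) and called 1.1% of unchanged genes. Of simulated 1.5-fold changes it called 59% in basal and 51% in lymphatic cells. The simulated counts held counting error only, so they cannot speak to differences between pools of mice or to free RNA. Scripts ran in Python 3.11.15 with pandas 2.3.3 and numpy 2.4.6, intervals came from scipy 1.17.1, doublet neighbours from scikit-learn 1.9.0 and plots from matplotlib 3.10.9. Alternatives were doublets, gates, scaling, cell weights, sex-called cells, barcode filter, fold and UMI minimum.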

Additional observations from a re-analysis of the deposited data

Results flagged for a closer look

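Tgfb2 differed between genotypes in opposite directions in lymphatic endothelium (log2 ratio 0.96) and in Krt79/Krt17 keratinocytes (-0.60). The keratinocyte value ran from -2.70 to 0.14 over the alternatives, with 0.14 in female-called cells. Tgfb3 differed between genotypes in opposite directions in Trdv4 T cells (2.0) and in lymphatic endothelium (-0.97). The T cell value was 1.29 among barcodes with a T cell marker UMI. Itgb8 differed between adult WT and young WT in opposite directions in Langerhans cells (2.99) and in lymphatic endothelium (-1.55). Of the 44 adult WT UMIs in Langerhans cells, however, 39 were in 9 cells with a Ccr7 UMI, and without such cells the levels were 0.911 CPM in adult WT and 0.999 CPM in young WT. Each pair of intervals lies on opposite sides of 0, but they cover counting error only, and with 1 library per group the difference between gates was not tested.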

How the results depend on the processing

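No paired analysis was possible because each group was 1 library, and for the same reason no replicate could be left out. Values are log2 ratios unless said otherwise, and the cause of a shift was not tested. Of 157 alternative values for the main results 130 stayed within the counting interval of the value reported (counts, within 1.5 times it), 26 moved further and 1 reversed. In male-called cells the genotype ratio of Il34 was 0.037 in basal and -0.061 in Krt1/Krt10 keratinocytes, that of Csf1 in basal cells 0.056, and the age ratio of Il34 in basal cells -0.21 (0.20 in female-called cells, 0.090 with median-of-ratios scaling). The age ratio of Il34 in Krt1/Krt10 cells was 0.13 in female-called cells. Tgfb2 in Krt79/Krt17 cells had genotype ratios of -2.70 with doubled thresholds (17 Lang-DTA and 21 adult WT cells), -2.45 in male-called cells and 0.14, the reversal, in female-called cells. Its age ratios were -0.020, 1.04 and -0.68 there. In T cells the age ratio of Tgfb1 was 0.17 with doubled thresholds, the genotype ratio of Tgfbr2 was 0.056 with cells weighted equally, and its age ratio was -0.22 (male-called), -0.35 (female-called) and -0.22 (median of ratios). The count of niche gene and gate pairs past 1.5-fold between genotypes, 12, was 4 at 2-fold and 7 of 33 at 200 UMIs, with a range of 4 to 17. Between ages, 13 became 8 of 45 with doubled thresholds, 6 at 2-fold and 5 of 37 at 200 UMIs, with a range of 5 to 18. The share of all genes was not taken under these settings, so these counts have no background beside them.

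Results added after seeing the data were Csf1 in lymphatic cells, at 2.40 (male-called), 3.29 (female-called) and 3.26 (cells weighted equally), and Il34 in fibroblasts, where leaving out barcodes with a mural UMI gave -0.079 between genotypes and 0.48, against -1.22, between ages, from 23 and 23 and from 23 and 17 UMIs, under the minimum of 50 and within counting error of 0. Also added, Tgfb3 in T cells was 1.29 among barcodes with a T cell marker UMI, and Il34 in mural cells between genotypes was 0.18 in male-called cells and -0.85 in female-called cells. Counting error is wide in the gates of few cells, with 50 to 162 in Krt79/Krt17 and Krt1/Krt10 keratinocytes and adult WT macrophages.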

Other observations

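Antigen presenting cells outside the main gates (168 in Lang-DTA, 113 in adult WT and 380 in young WT) held Csf1 at 39.8 CPM (30.6 to 50.8) in Lang-DTA, 2.24 CPM (0.463 to 6.56) in adult WT and 0.366 CPM (0.0443 to 1.32) in young WT, from 64, 3 and 2 UMIs. The genotype ratio was 17.7 (5.80 to 88.2), and 14.7% of measured genes passed 1.5-fold there. Of the Lang-DTA UMIs 54 were in the 41 cells with a UMI of Ccr7, the receptor of migrating dendritic cells, which held 110 CPM, against 1 UMI in 10 such cells of adult WT and 0 in 22 of young WT. Cells without a Ccr7 UMI held 8.95, 1.65 and 0.393 CPM. Ccr7 itself was at 608 CPM in Lang-DTA and 84.5 CPM in adult WT.

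In other lymphocytes Itgb8 was at 21.8 CPM in Lang-DTA, 5.56 CPM in adult WT and 12.7 CPM in young WT, from 33 and 17 UMIs in the adult libraries. In mural cells Itgb8 was at 19.7 CPM in Lang-DTA, 0.900 CPM in adult WT and 0.326 CPM in young WT, from 30, 2 and 1 UMIs, in a gate whose fibroblast marker sum was 5040, 1131 and 1056 CPM.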
